A study of Homo sapiens with 18 samples.

Results

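The genes described are 9 that put peptides on HLA class I molecules: the heavy chains *HLA-B*, *HLA-C* and *HLA-E*, the light chain *B2M*, the peptide transporter subunits *TAP1* and *TAP2*, the loading factor *TAPBP*, the proteasome subunit *PSMB9* and the regulator *NLRC5*. They were chosen by symbol, without use of their values in the choice rule, and are 9 of 26941 genes in the count tables. RNA was sequenced from 18 samples of 3 established B-cell precursor leukemia lines, to ask what changes when the transcription factor SOX11 is silenced. Each line gave 3 samples nucleofected with *SOX11* siRNA and 3 with a non-specific control siRNA, both at 300 nM, with RNA collected after 48 h as independent biological replicates. REH represents the *ETV6-RUNX1* subtype, and 697 and RCH-ACV are of another subtype. All samples, controls included, had been nucleofected, and no untransfected cells were compared here. Each line stands for 1 leukemia, so a difference between REH and the other lines cannot be told apart from a difference between subtypes, while 697 and RCH-ACV differ within a subtype.

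Class I molecules display peptides from inside the cell to CD8 T cells. Proteasomes cut proteins into peptides, the TAP transporter carries them into the endoplasmic reticulum, and tapasin, the product of *TAPBP*, holds TAP next to an empty heavy chain paired with beta-2-microglobulin. Interferon-gamma induces much of this machinery, including the immunoproteasome subunit encoded by *PSMB9*. NLRC5 is a transactivator that binds no DNA itself and is recruited to class I promoters by RFX, CREB and NF-Y proteins, as CIITA is to class II promoters. HLA-B and HLA-C are classical, highly polymorphic heavy chains, while HLA-E is less variable and mainly shows leader peptides of other class I chains to NK cell receptors. B-cell precursor leukemias commonly keep class I on their surface.

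Of the 9 genes, 7 lie on chromosome 6 in the major histocompatibility complex. On hg19, *HLA-E* spans chr6:30457286-30461971 on the plus strand, *HLA-C* chr6:31236526-31239869 and *HLA-B* chr6:31321652-31324956 on the minus strand. *TAP2* (chr6:32793192-32806516, minus), *TAP1* (chr6:32812986-32821481, minus) and *PSMB9* (chr6:32821969-32827628, plus) lie close together, with *PSMB8* between *TAP2* and *TAP1*, and *TAPBP* lies at chr6:33267471-33281855 on the minus strand. *B2M* is on chromosome 15 (chr15:45003715-45010343, plus) and *NLRC5* on chromosome 16 (chr16:57023469-57117432, plus).

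Promoters were listed by RefSeq (GRCh38.p14) for 7 of the 9 genes, *HLA-E* and *NLRC5* being the others. Short stretches of the 250 bases before the start are shown because they hold the element types by which class I genes are known to be driven. The first set shows, in capitals, matches on either strand to a kappaB-like motif (GGGA, any 4 bases, then CC) or an IRF-like motif (AANNGAAA), where N is any base. Sequences read 5′ to 3′ on the strand of the gene.

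*HLA-B* (chr6:31357327-31357356, minus strand): GGGGATTCCCCactcccctgagTTTCACTT
*HLA-C* (chr6:31272236-31272264, minus strand): GGGATTCTCCactcccctgagTTTCACTT
*B2M* (chr15:44711375-44711401, plus strand): AAAGGAAACTGAAAacGGGAAAGTCCC
*TAP1* (chr6:32853817-32853846, minus strand): gcggccgcTTTCGATTTCGCTTtcccctaa
*TAP1* (chr6:32853757-32853786, minus strand): gcctgttcctGGGACTTTCCgagagccccg
*TAP2* (chr6:32838781-32838808, minus strand): gctggggAAGCGAAAGCGAAAgctgccc
*TAPBP* (chr6:33314079-33314108, minus strand): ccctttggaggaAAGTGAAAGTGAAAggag

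The IRF-like motif matched in 6 of these 7 promoters and the kappaB-like motif in 5 of the 7, against 20.6% and 22.1% of 27305 promoters of the same length. In *HLA-B* and *B2M* the 2 kappaB-like matches overlap on opposite strands, and in *B2M*, *TAP1*, *TAP2* and *TAPBP* the 2 IRF-like matches overlap. No match to either motif was found in the *PSMB9* stretch. The second set shows, in capitals, matches on either strand to TGACG, the core of the CREB-bound X2 element, found in 21.7% of all promoters. *TAP2* also holds a TGACG match, at -35 to -31 relative to the start, in a stretch not shown. CCAAT, the core of the NF-Y-bound Y element, is in capitals too, but only the *HLA-C* stretch holds a match. Outside these stretches, its reverse complement ATTGG lies at similar positions relative to the start in *HLA-B* (-81 to -77) and *HLA-C* (-80 to -76). Which match, if any, is the Y element was not tested.

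*HLA-B* (chr6:31357268-31357297, minus strand): ccaggatactcgTGACGcgtccccacttcc
*HLA-C* (chr6:31272180-31272209, minus strand): cctgaatactcaTGACGcgtccCCAATtcc
*B2M* (chr15:44711430-44711459, plus strand): cttggagacaggTGACGgtccctgcgggcc
*PSMB9* (chr6:32854036-32854065, plus strand): gcggggctgcctCGTCActtgtctcggggc

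*HLA-B*, *HLA-C*, *B2M* and *PSMB9* each held both TGACG and CCAAT on either strand, as did 7.62% of all promoters. A SOX-like core (ACAANG) matched once in *B2M* and once in *PSMB9* and in 31.1% of all promoters. The *TAP1* and *PSMB9* genes point away from each other, with 487 bases between their starts, and their stretches share 13 bases. The motif letters were settled after the sequences were seen, in the second form tried. The comparisons with all promoters are therefore descriptions and not tests. A match is a run of letters, not a measured binding site.

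The total count per sample on the 26941 genes lay between 7039594 and 16592492, and 3 counts equal 0.181 to 0.426 CPM, the count scaled to the TMM-adjusted library size. *SOX11* was lower with its siRNA in every line, by -0.83, -0.91 and -0.67 on the log2 scale for REH, 697 and RCH-ACV, and its groups did not overlap in any line. The silencing was partial, with 47.7 to 61.4, 30.8 to 32.5 and 78.7 to 86.7 CPM of *SOX11* left in the same order. The controls had 93.0 to 98.6, 59.3 to 59.8 and 124 to 136 CPM. Of 10 B-cell precursor markers, 9 to 10 reached a mean of 1 CPM in each group, *VPREB1* being near 0 in REH. The 5 T-cell markers summed to at most 0.580 CPM and the 3 erythroid markers to at most 0.391 CPM in any sample. Of 6 myeloid markers 1 reached 1 CPM in each line, *MPO* in REH and *CSF1R* in the other two, and their summed level was 14.1 to 15.7 CPM in REH controls and 8.82 to 10.0 CPM with *SOX11* siRNA. The part of that difference in the REH results was not tested. In RCH-ACV the sample with *SOX11* siRNA replicate 3 stood apart from its group, and 2479 genes passed the test without it against 973 with it.

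**Figure D1:**
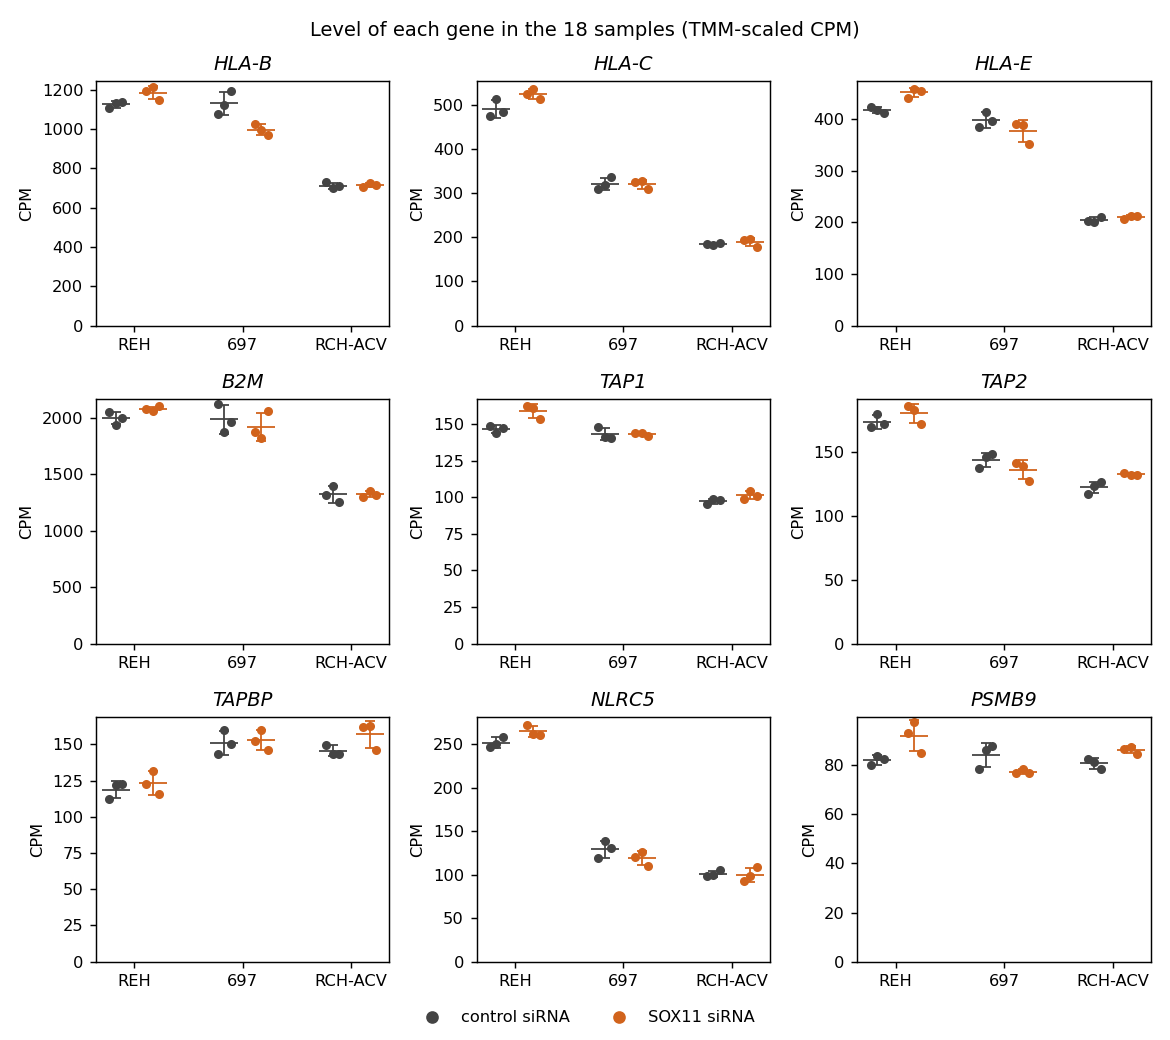
Level of the 9 genes in each of the 18 samples, as CPM on a linear axis from 0, by cell line, with control siRNA in dark grey and *SOX11* siRNA in orange (points are samples, bars the mean ± SD, n = 3). Every RCH-ACV sample lies below every sample of the other lines in the panels of *HLA-B*, *HLA-C*, *HLA-E*, *B2M* and *TAP1*, and the lines overlap in that of *PSMB9*.

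With control siRNA, class I and loading genes were at lower levels in RCH-ACV than in the other lines, except *TAPBP* and *PSMB9*. *HLA-C* fell in a graded order from REH through 697 to RCH-ACV, and so did *NLRC5* and *TAP2*. *HLA-B*, *HLA-E*, *B2M* and *TAP1* were at like levels in REH and 697 and lower in RCH-ACV. *TAPBP* went the other way and was lowest in REH. The tests are edgeR quasi-likelihood F-tests on the 9 control samples, adjusted over 13686 genes by Benjamini-Hochberg, with a call at an adjusted p under 0.05.

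*HLA-B* in the control samples stood at 1107, 1133 and 1137 CPM in REH, 1075, 1124 and 1194 CPM in 697, and 729, 698 and 712 CPM in RCH-ACV. The REH and 697 samples overlapped, and every RCH-ACV sample lay below them. RCH-ACV was lower than REH by a log2 fold change of -0.65 ± 0.04 (SE, adjusted p = 4.89e-11, edgeR) and lower than 697 by -0.66 ± 0.04 (adjusted p = 5.86e-11), while 697 against REH gave 0.02 (95% interval -0.07 to 0.10, adjusted p = 0.729).

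*HLA-C* stood at 475, 512 and 484 CPM in REH, 308, 319 and 336 CPM in 697, and 185, 184 and 186 CPM in RCH-ACV. The 3 lines did not overlap. Its log2 fold change was -0.60 ± 0.04 for 697 against REH (SE, adjusted p = 3.62e-10, edgeR), -1.40 ± 0.04 for RCH-ACV against REH (adjusted p = 3.26e-15) and -0.79 ± 0.05 for RCH-ACV against 697 (adjusted p = 2.81e-11). The RCH-ACV level was 0.380 times that in REH, the lowest such fold of the 9 genes.

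*HLA-E* measured 423, 418 and 412 CPM in REH, 384, 414 and 396 CPM in 697, and 203, 201 and 210 CPM in RCH-ACV. RCH-ACV was at 0.494 times the REH level and 0.515 times the 697 level, without overlap with either. REH and 697, which overlapped, differed by -0.06 on the log2 scale (95% interval -0.15 to 0.02, adjusted p = 0.176, edgeR).

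*B2M*, the light chain that all class I heavy chains need, measured 2053, 1943 and 2002 CPM in REH, 2125, 1876 and 1966 CPM in 697, and 1315, 1401 and 1254 CPM in RCH-ACV. RCH-ACV lay below both other lines, by -0.58 ± 0.05 on the log2 scale in each comparison (SE, adjusted p = 1.82e-09 against REH and 2.72e-09 against 697, edgeR). REH and 697 overlapped and differed by 0.0021 (95% interval -0.09 to 0.10).

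The transporter subunits differed in their pattern. *TAP1* stood at 148, 144 and 147 CPM in REH, 148, 141 and 141 CPM in 697 and 95.2, 98.6 and 97.7 CPM in RCH-ACV. *TAP2* stood at 170, 180 and 172 CPM in REH, 138, 146 and 148 CPM in 697 and 117, 123 and 126 CPM in RCH-ACV. *TAP1* was like *B2M*, with overlap between REH and 697 only, while the 3 lines did not overlap for *TAP2*. The log2 fold change of *TAP1* was -0.58 ± 0.05 for RCH-ACV against REH (adjusted p = 2.81e-09) and -0.02 ± 0.05 for 697 against REH (adjusted p = 0.651). For *TAP2* the same differences were -0.49 ± 0.05 (adjusted p = 5.00e-08) and -0.26 ± 0.05 (adjusted p = 9.83e-05), and RCH-ACV was below 697 by -0.23 ± 0.05 (adjusted p = 6.54e-04).

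*TAPBP*, which encodes the bridging chaperone tapasin, measured 112, 122 and 122 CPM in REH, 144, 160 and 150 CPM in 697, and 150, 143 and 143 CPM in RCH-ACV. Both 697 and RCH-ACV lay above REH without overlap, by 0.36 ± 0.05 for 697 (SE, adjusted p = 8.75e-06, edgeR) and 0.31 ± 0.05 for RCH-ACV (adjusted p = 5.25e-05). They overlapped with each other, at a difference of -0.05 (95% interval -0.16 to 0.06).

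*PSMB9* was the flattest of the 9 across lines, at 80.0, 83.8 and 82.5 CPM in REH, 78.6, 86.3 and 87.7 CPM in 697, and 82.4, 81.3 and 78.2 CPM in RCH-ACV. All 3 groups overlapped. The differences were 0.04 for 697 against REH (95% interval -0.08 to 0.17), -0.01 for RCH-ACV against REH (-0.13 to 0.11) and -0.06 for RCH-ACV against 697 (-0.18 to 0.07), and none was called. Its head-to-head neighbor *TAP1* was lower in RCH-ACV than in either other line.

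*NLRC5* measured 247, 250 and 259 CPM in REH, 119, 138 and 131 CPM in 697, and 98.6, 99.5 and 105 CPM in RCH-ACV. The 3 lines did not overlap, and REH was the highest. The log2 fold changes were -0.95 ± 0.05 for 697 against REH (SE, adjusted p = 1.06e-11, edgeR), -1.30 ± 0.05 for RCH-ACV against REH (adjusted p = 1.63e-13) and -0.35 ± 0.06 for RCH-ACV against 697 (adjusted p = 3.21e-05). Both *NLRC5* and *B2M* were lowest in RCH-ACV. Between 697 and REH *NLRC5* was called lower in 697, while *B2M* was not called. Whether the levels of the 2 genes are linked was not tested.

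In all, 4 of the 9 genes were called between 697 and REH (1 higher, 3 lower), 8 between RCH-ACV and REH (1 higher, 7 lower) and 7 between RCH-ACV and 697 (all 7 lower). Of all genes tested, 76.2%, 73.7% and 64.2% were called in these comparisons, so the count of calls by itself does not set the 9 apart. Higher calls made up 36.9%, 37.6% and 33.3% of genes tested, and lower calls 39.3%, 36.1% and 30.9%. The same 4, 8 and 7 members had groups without overlap, against 76.6%, 77.5% and 66.4% of genes tested (higher 36.5%, 38.9% and 34.4%, lower 40.1%, 38.6% and 32.0%). The median log2 fold change of the 9 was -0.02, -0.58 and -0.56, against -0.02, 0.01 and 0.01 over all genes. The 3 comparisons share control samples and are not independent of each other. Scaled by library size alone, the median of all genes moved to -0.15 for 697 against REH, 40.3% in place of 48.5% of the calls were higher, and 8 of the 9 were called, 1 higher and 7 lower, with *HLA-B* at -0.12 and *B2M* at -0.13.

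**Figure D2:**
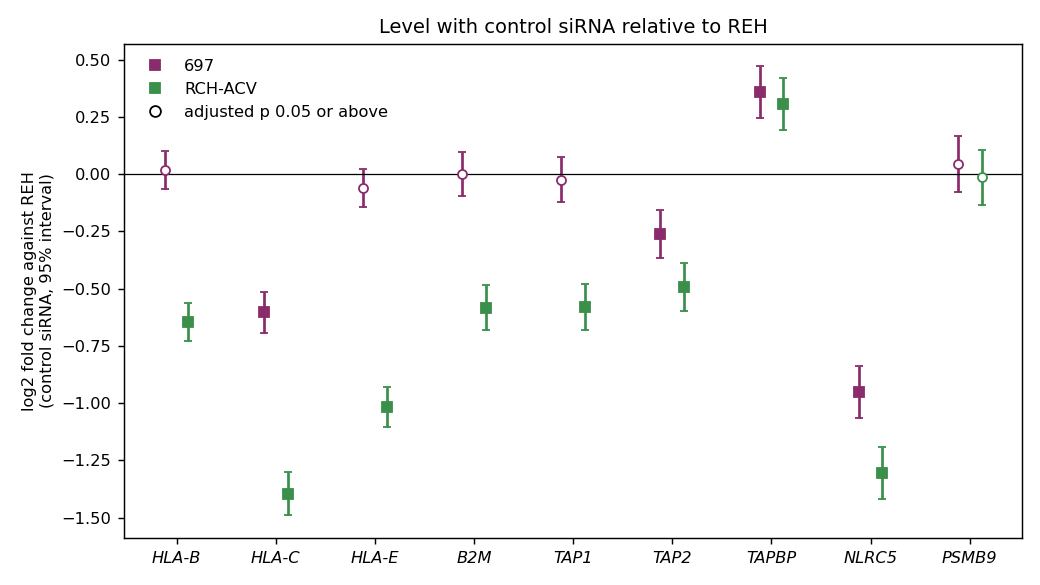
Log2 fold change of each gene in 697 (purple) and RCH-ACV (green) against REH, control siRNA, with 95% intervals from edgeR (n = 3 per line). Filled squares were called at an adjusted p under 0.05 and open circles were not. Most RCH-ACV points sit below 0, *TAPBP* sits above 0 in both lines and both *PSMB9* intervals include 0.

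Levels between genes were compared per kilobase of the canonical transcript, as RPKM. On that scale *B2M* was the highest of the 9 in every line, at 2120 ± 59 in REH, 2109 ± 134 in 697 and 1403 ± 79 in RCH-ACV (SD, n = 3, control siRNA). *HLA-B* was the highest of the 3 heavy chains among the 9, at 733 ± 11, 736 ± 39 and 464 ± 10 in the same order. The transporter and loading genes were far lower, *TAP1* at 36.2 to 54.6 and *TAP2* at 21.7 to 30.8 as means of the 3 lines, and *NLRC5* at 14.9 to 37.1. The *TAP1* to *TAP2* ratio of RPKM was 1.78 ± 0.08, 2.09 ± 0.14 and 1.67 ± 0.04 for REH, 697 and RCH-ACV (SD, n = 3).

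The heavy-chain genes are near-identical copies of one another and differ by allele between lines, and the reads were aligned to a single reference. Reads aligning to more than 2 places were discarded, so counts of single heavy chains are uncertain, and whether the lines' alleles aligned equally well was not tested. The pseudogene *HLA-H*, a near copy, had 54.3 ± 4.6 CPM in REH, 41.7 ± 4.0 in 697 and 39.3 ± 3.8 in RCH-ACV (SD, n = 3, control siRNA).

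The log2 ratio of *HLA-B* plus *HLA-C* to *B2M*, per length, was -1.01 ± 0.07 in REH, -1.16 ± 0.14 in 697 and -1.26 ± 0.10 in RCH-ACV (SD, n = 3). It was lower in RCH-ACV than in REH by -0.25 without overlap, with p = 0.1, the smallest a two-sided exact permutation test of 3 against 3 can give. The other comparisons of lines overlapped, at -0.15 for 697 against REH (p = 0.2, exact permutation) and -0.10 for RCH-ACV against 697 (p = 0.3, exact permutation).

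*PSMB9* encodes the immunoproteasome subunit that takes the place of *PSMB6*. Its share of that pair was 33.0% ± 1.6 in REH, 35.2% ± 1.0 in 697 and 32.8% ± 0.2 in RCH-ACV (SD, n = 3, control siRNA). *PSMB8* held 67.2% ± 1.4, 61.8% ± 2.3 and 47.3% ± 0.3 of its pair with *PSMB5* in the same order, and *PSMB10* held 28.1% ± 1.5, 26.8% ± 2.1 and 28.0% ± 2.1 of its pair with *PSMB7*. The log2 ratio of *PSMB9* to *PSMB6* differed by 0.14 between 697 and REH (p = 0.2, exact permutation), by -0.01 between RCH-ACV and REH (p = 0.8, exact permutation) and by -0.16 between RCH-ACV and 697 (p = 0.1, exact permutation, no overlap).

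**Figure D3:**
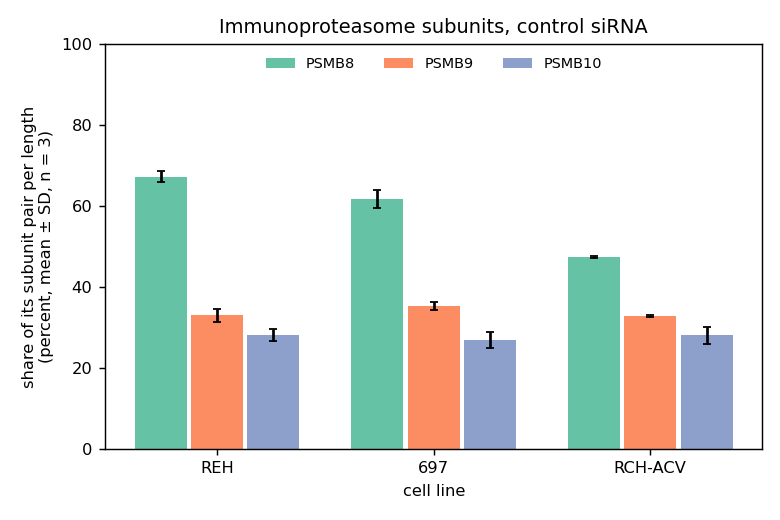
Share of each immunoproteasome subunit in the summed RPKM with its constitutive partner, in percent on an axis from 0, in samples with control siRNA (bars are the mean ± SD, n = 3 per line). The *PSMB8* share is 67.2% in REH and 47.3% in RCH-ACV, and that of *PSMB9* lies between 32.8% and 35.2%.

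Of 34 other genes of the pathway, 13 were called higher and 8 lower in 697 than in REH, 11 higher and 14 lower in RCH-ACV than in REH, and 9 higher and 12 lower in RCH-ACV than in 697. Of all genes tested, 76.2%, 73.7% and 64.2% were called in the same order, so these counts do not set the pathway apart. *CIITA*, the class II transactivator and a relative of *NLRC5*, differed most between REH and the others, at 347 ± 13 CPM in REH, 39.0 ± 2.1 in 697 and 69.2 ± 3.8 in RCH-ACV (SD, n = 3). *IFNGR1*, a chain of the interferon-gamma receptor, was 73.4 ± 0.9 CPM in REH, 28.0 ± 0.5 in 697 and 39.6 ± 2.0 in RCH-ACV. *IFNGR2*, the other chain, was lower in 697 than in REH by -1.25 on the log2 scale and higher in RCH-ACV than in 697 by 1.01. *IRF1*, an interferon-induced factor, was lower in 697 than in REH by -0.93.

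*NFKB1*, a kappaB-binding subunit, went against these, with log2 fold changes of 1.47 in 697 and 1.03 in RCH-ACV against REH. *CALR*, the chaperone calreticulin of the loading complex, was higher in RCH-ACV than in REH by 1.03. Between RCH-ACV and 697 the largest called differences were *HLA-F* at -1.42, *IFNGR2*, *ERAP1*, which trims peptides in the endoplasmic reticulum, at -0.97, the immunoproteasome subunit *PSMB8* at -0.93 and *CIITA* at 0.83. *HLA-F* was also lower in RCH-ACV than in REH, by -1.48.

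Interferon-response genes did not share 1 order across lines. Of 19 tested, 3 were higher and 13 lower in 697 than in REH, 4 higher and 9 lower in RCH-ACV than in REH, and 10 higher and 3 lower in RCH-ACV than in 697. Among all genes, 36.9%, 37.6% and 33.3% were called higher and 39.3%, 36.1% and 30.9% lower in the same order. *MX1*, an antiviral GTPase, was 40.2 ± 1.7 CPM in REH, 0.225 ± 0.081 in 697 (1 to 2 counts in each sample) and 17.5 ± 0.7 in RCH-ACV (SD, n = 3). *OAS2*, an RNA sensor, was 62.5 ± 0.7, 85.9 ± 6.2 and 10.5 ± 1.0 CPM in the same order. *IFI44* was lower in RCH-ACV than in REH by -2.26 on the log2 scale, and *GBP2*, with 1 to 26 counts in any control sample, was higher in 697 than in REH. *CXCL10* was at 0 in all 18 samples.

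With *SOX11* RNA only partly reduced, the effect of its siRNA on the 9 genes was small in every line. The largest in absolute value was -0.18 on the log2 scale, for *HLA-B* in 697. In REH all 9 fold changes were above 0 and 1 was called, *HLA-E*, against 4.65% of genes tested (2.64% higher, 2.01% lower). There all but *TAP2* and *TAPBP* had an unadjusted p under 0.05, the largest being that of *NLRC5*, ranked 1879 of 12787 genes (edgeR). In 697, 8 of the 9 were below 0 and none was called by edgeR or DESeq2, against 0.559% of genes tested (0.0822% higher, 0.477% lower). Only *HLA-B* had an unadjusted p under 0.05 in 697, ranked 213 of 12169 genes (edgeR). In RCH-ACV, 8 of the 9 were above 0 and none was called by either tool, against 7.51% (3.59% higher, 3.92% lower). There *TAP2* and *TAPBP* had an unadjusted p under 0.05, ranked 2238 and 2881 of 12963 genes (edgeR). Those 2 do not set the 9 apart from genes at large.

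In REH, *HLA-E* with *SOX11* siRNA measured 441, 459 and 454 CPM against 423, 418 and 412 CPM in the controls. Every sample with *SOX11* siRNA lay above every control, by a log2 fold change of 0.12 ± 0.03 (SE, 95% interval 0.05 to 0.18, adjusted p = 0.0383, edgeR), or 1.08-fold. The call did not hold under DESeq2 (adjusted p = 0.0744), scaling by library size (0.0611), 1 fit over the 18 samples (0.256) or in 5 of the 6 fits that each leave out 1 sample, and was kept without control replicate 1. It was lost with the replicate block too (0.106).

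*PSMB9* had the largest log2 fold change of the 9 in REH, at 93.2, 97.7 and 85.0 CPM against 80.0, 83.8 and 82.5 CPM. The groups did not overlap, and the difference was 0.16 ± 0.05 (95% interval 0.05 to 0.28) with an adjusted p of 0.0936 by edgeR. *TAP1* followed, at 162, 161 and 153 CPM against 148, 144 and 147 CPM, a difference of 0.12 ± 0.04 (adjusted p = 0.106). *HLA-C* gave 525, 536 and 513 CPM against 475, 512 and 484 CPM, a difference of 0.10 ± 0.03 (adjusted p = 0.0996).

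*HLA-B* in REH gave 1197, 1212 and 1149 CPM against 1107, 1133 and 1137 CPM, a difference of 0.08 ± 0.03 (adjusted p = 0.145, edgeR). *B2M* gave 2078, 2065 and 2103 CPM against 2053, 1943 and 2002 CPM (0.06 ± 0.03), and *NLRC5* 272, 262 and 261 CPM against 247, 250 and 259 CPM (0.08 ± 0.04). Groups did not overlap for *HLA-B*, *B2M* or *NLRC5* either. *TAP2* and *TAPBP* overlapped, at differences of 0.06 ± 0.04 for *TAP2* and 0.06 ± 0.05 for *TAPBP*. In all, 7 of the 9 had groups without overlap, all higher, against 21.4% of genes tested without overlap (10.1% higher, 11.3% lower), and the median log2 fold change was 0.08 against -0.0022 over all genes. Without *SOX11* siRNA replicate 3, *HLA-B*, *TAP1* and *PSMB9* were called and *HLA-E* was not, and without control replicate 2 *HLA-C* was called.

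In 697, *HLA-B* with *SOX11* siRNA gave 1026, 996 and 972 CPM against 1075, 1124 and 1194 CPM in the controls, with no overlap. The log2 fold change was -0.18 ± 0.05 (SE, 95% interval -0.29 to -0.07), or 0.881-fold with an adjusted p of 0.225 by edgeR. *PSMB9* gave 76.8, 78.4 and 76.6 CPM against 78.6, 86.3 and 87.7 CPM, also without overlap, at -0.13 ± 0.07 (adjusted p = 0.721). These were 2 of the 9 genes, both lower, against 13.1% of genes tested without overlap (5.69% higher, 7.42% lower).

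*NLRC5* in 697 gave 121, 126 and 110 CPM against 119, 138 and 131 CPM, at -0.12 ± 0.08 (95% interval -0.30 to 0.05). The other members overlapped too, with log2 fold changes between -0.08 for *TAP2* and 0.01 for *TAPBP*, and *HLA-C* and *TAP1* lay within 0.01 of 0. The median of the 9 was -0.08, against -0.0038 over all genes. In 1 fit over the 18 samples *HLA-B* was called lower in 697 (-0.18, adjusted p = 0.0101), as it was without control replicate 1 (-0.22, adjusted p = 0.0499).

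In RCH-ACV, *TAP2* with *SOX11* siRNA gave 134, 132 and 132 CPM against 117, 123 and 126 CPM in the controls. The groups did not overlap, and the log2 fold change was 0.11 ± 0.05 (SE, 95% interval 0.01 to 0.22, adjusted p = 0.167, edgeR). *TAPBP* gave 162, 163 and 146 CPM against 150, 143 and 143 CPM, with overlap through the library that stands apart, at 0.11 ± 0.05 (adjusted p = 0.219). Without that library its difference was 0.16 (adjusted p = 0.00836).

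*PSMB9* in RCH-ACV gave 86.6, 87.5 and 84.6 CPM against 82.4, 81.3 and 78.2 CPM, without overlap, at 0.10 ± 0.05 (adjusted p = 0.284). *TAP1* also did not overlap, at 98.8, 104 and 101 CPM against 95.2, 98.6 and 97.7 CPM (0.07 ± 0.05). The 3 genes without overlap were all higher, against 25.9% of genes tested without overlap (12.2% higher, 13.7% lower). *HLA-B* and *B2M* hardly moved, at 0.0047 (95% interval -0.07 to 0.08) and 0.0039 (-0.08 to 0.09), and *HLA-C*, *HLA-E* and *NLRC5* lay at 0.04, 0.04 and -0.02. The median of the 9 was 0.04, against 0.0049 over all genes.

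**Figure D4:**
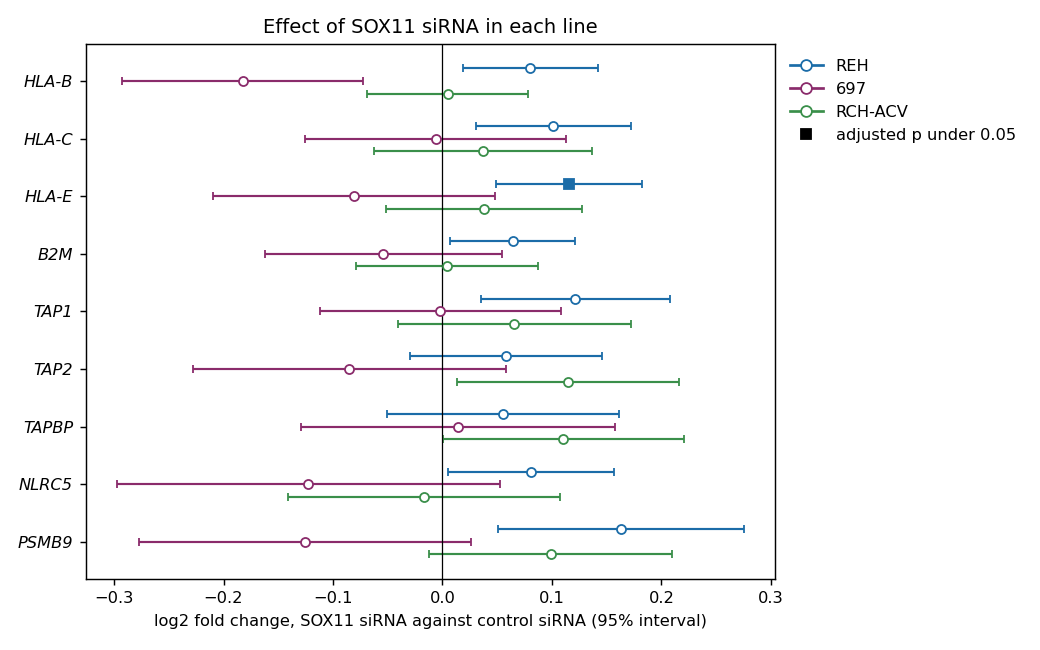
Log2 fold change of each gene with *SOX11* siRNA against control siRNA in REH (blue), 697 (purple) and RCH-ACV (green), with 95% intervals from edgeR (n = 3 against 3). The filled square is *HLA-E* in REH, the single call. The REH points all lie right of 0, and the 697 interval of *HLA-B* lies left of 0.

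The difference of the siRNA effect between lines was tested by an interaction over the 18 samples. *HLA-B* was called (adjusted p = 0.0339, edgeR), 1 of the 9, against 0.734% of all genes, with line effects of 0.08, -0.18 and 0.0047 for REH, 697 and RCH-ACV. The call held with DESeq2 and was lost under library size alone (adjusted p = 0.0804), with the replicate block (0.214) and, with adjusted p from 0.0575 to 0.117, in the fits without REH control 1, 2 or 3, REH *SOX11* siRNA 1 or 2, 697 control 2 or 3, 697 *SOX11* siRNA 2 or 3, RCH-ACV control 2 or 3, or RCH-ACV *SOX11* siRNA 1 or 2. The other 8 were not called, with adjusted p from 0.205 for *PSMB9* to 0.897 for *TAPBP*. A single effect shared by the 3 lines was called for none of the 9 by edgeR or DESeq2, against 8.14% of all genes (3.31% higher, 4.83% lower), the largest being *TAP1* at 0.06 (95% interval 0.0048 to 0.12, adjusted p = 0.189, edgeR). *TAP1* was the only member with an unadjusted p under 0.05 in that fit, ranked 2557 of 14026 genes. DESeq2 called none of the 9 in REH.

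Ratios within samples were also compared between the siRNAs. The log2 ratio of *PSMB9* to *PSMB6* differed without overlap in 697 (-0.14) and RCH-ACV (0.16), each with p = 0.1 in the exact permutation test, and was 0.12 higher in REH (p = 0.2, exact permutation). The log2 ratio of *HLA-B* plus *HLA-C* to *B2M* differed by 0.02, -0.09 and 0.0060 for REH, 697 and RCH-ACV (exact permutation p = 0.7, 0.5 and 1).

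Among the 34 other pathway genes, *SOX11* siRNA gave 2 calls in REH, both higher, 0 in 697 and 4 in RCH-ACV, 3 higher and 1 lower. Of all genes tested, 4.65%, 0.559% and 7.51% were called in the same order, so these counts do not set the pathway genes apart. The calls in REH were *JAK1*, a kinase of interferon receptors (log2 fold change 0.21, adjusted p = 0.00349, edgeR), and *RFX5*, a subunit of the RFX complex (0.13, adjusted p = 0.0416). In RCH-ACV *PSMB8* (0.22), *PSMB10* (0.23) and *PSME1* (0.14), which are immunoproteasome or proteasome activator subunits, were higher and *NFYB*, a subunit of NF-Y, was lower (-0.26). Shared over the lines, *PSMB10*, *PSME2* and *JAK2* were higher by 0.16, 0.09 and 0.22, and *PSME3* lower by -0.09. In that fit 3.31% of all genes were called higher and 4.83% lower.

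Interferon-response genes gave no call in REH or 697 among 18 tested, against 4.65% and 0.559% of all genes. In RCH-ACV 3.59% of all genes were called higher and 3.92% lower. Of the 18 interferon-response genes there, 1 was higher, *OAS2* (log2 fold change 0.42), and 2 were lower. The lower ones were *IFIT3* at 12.5 ± 2.1 CPM against 19.2 ± 1.7 and *IFIT2* at 4.07 ± 0.35 CPM against 6.09 ± 0.66 (SD, n = 3). As an effect shared by the lines, 0 were higher and 5 lower of 19, with *OAS1* at -0.55 and *IFIT1* at -0.40. The shares over all genes were 3.31% higher and 4.83% lower. *OAS2* was named after its value was seen.

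Across the 18 samples, differences between lines dominated how the 9 varied together. Pearson's r of log2 CPM was 0.99 for *HLA-B* with *HLA-E* and 0.98 for *B2M* with *TAP1*, and -0.87 for *TAPBP* with *NLRC5*. With each line's mean subtracted, *HLA-B* with *HLA-E* gave 0.65 and *HLA-B* with *PSMB9* 0.77, while *HLA-B* with *B2M* gave 0.06. These are descriptions over 18 samples that share lines and library scaling. The genes outside the 9 whose log2 CPM followed the mean of the 9 most closely were *HLA-DPA1*, *GAB1*, *TM9SF4*, *MCM2* and *SESN3* (r from 0.983 to 0.986, of 11301 genes searched). With line means subtracted they were *AEBP1*, *PELI3*, *HLA-F*, *GRID2IP* and *FGD3* (r from 0.849 to 0.901).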

How the data were processed

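RNA of 18 samples was sequenced from stranded mRNA libraries. The authors trimmed and quality-filtered reads, aligned them to hg19 with STAR 2.5.3a and counted them with HOMER. The deposited values are raw counts on RefSeq transcripts, without normalization. The strand setting of the counting was not given in the sources used here, so reads of overlapping antisense genes may be included.

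Transcripts were matched to symbols, and each gene was read from its most-counted transcript across all samples. Fits were made per line in edgeR 4.0.16 (R 4.3.3), with TMM scaling, filterByExpr and the two-sided quasi-likelihood F-test, adjusted by Benjamini-Hochberg over all genes tested. The interaction and the shared effect were fitted over the 18 samples, and lines were compared in the 9 control samples. RPKM used GENCODE canonical transcript lengths. Ratios were tested by exact permutation. All 9 members passed the filter on low counts in every fit. Other genes named were, per comparison, up to 5 called pathway genes and 2 called interferon-response genes with the largest log2 fold change. The fits were tested on simulated data.

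Alternatives were RLE factors, library size alone, DESeq2 1.42.0, other filters, a replicate block, other transcript choices, 1 fit over the 18 samples, an adjusted p under 0.01 and leaving out each sample. The members and lists were chosen with earlier results of these data known, and the motifs after the sequences were seen. Plots used Python 3.11.15 and matplotlib 3.10.9. The heavy-chain make-up is not reported here.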

Additional observations from a re-analysis of the deposited data

Results flagged for a closer look

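*HLA-B* was called as differing between lines in its change with *SOX11* siRNA, but the call depended on the processing and on single samples. In the interaction test over the 18 samples its log2 fold changes of 0.08, -0.18 and 0.0047 for REH, 697 and RCH-ACV differed with an adjusted p of 0.033941 (edgeR). The call was lost under library size alone (adjusted p = 0.0804), with the replicate block (0.214) and in 13 of 18 fits without 1 sample. Its effect in 697 was not called in the fit of that line (adjusted p = 0.225, edgeR). In 697 each of the 3 samples with *SOX11* siRNA lay below each control, in REH each lay above, and in RCH-ACV the groups overlapped. Whether its reads include those of near-identical heavy chains was not tested.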

How the results depend on the processing

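Calls between lines held better than calls of the siRNA. The *HLA-E* call in REH gave 0 members under library size alone, DESeq2, an adjusted p under 0.01, the replicate block (*HLA-E* adjusted p = 0.106) and 1 fit over the 18 samples, and 0 to 3 members without 1 sample. In 697, 1 member was called in 1 fit over the 18 samples and 0 to 1 without 1 sample, and in RCH-ACV 0 to 1. The *HLA-B* interaction gave 0 members under library size alone (adjusted p = 0.0804), the replicate block (adjusted p = 0.214) and an adjusted p under 0.01, and 0 to 1 without 1 sample. Library size alone gave 8 members for 697 against REH, with *HLA-B* at -0.12, *B2M* at -0.13 and *PSMB9* at -0.089 reversed, and for RCH-ACV against 697 *TAPBP* at 0.0097 and *PSMB9* at 0.0031. *B2M* for 697 against REH was -0.0079 in 1 fit over the 18 samples, and its shared effect -8.2e-06 with RLE factors. In 697, *HLA-C* was 0.00064, 0.0055, 0.00066 and 0.0077 and *TAP1* 0.0049, 0.010, 0.0048 and 0.012 with RLE factors, library size alone, DESeq2 and no filter, and *TAP1* was 0.00090 with all transcripts apart. Without 1 sample, siRNA effects that changed sign ran in 697 from -0.037 to 0.033 for *HLA-C*, -0.0093 to 0.020 for *TAP1* and -0.024 to 0.062 for *TAPBP*, and in RCH-ACV from -0.0085 to 0.024 for *HLA-B*, -0.035 to 0.048 for *B2M* and -0.073 to 0.028 for *NLRC5*. The shared effect ran from -0.0080 to 0.022 for *B2M* and -0.030 to 0.0076 for *NLRC5*. Between 697 and REH, *HLA-B* ran from -0.024 to 0.054 and *B2M* from -0.046 to 0.044, and between RCH-ACV and REH *PSMB9* ran from -0.035 to 0.016 and its ratio to *PSMB6* from -0.065 to 0.039. The ratio of *HLA-B* plus *HLA-C* to *B2M* ran from -0.012 to 0.056 in REH and -0.049 to 0.045 in RCH-ACV. None of these sign changes was a called value except *HLA-B* and *B2M* under library size alone, and the causes were not tested. Same-numbered samples did not deviate together (r from -0.150 to 0.156 within lines), so the numbers were not taken as pairs. The replicate block moved the calls over all genes from 594 to 470 in REH, 68 to 29 in 697, 103 to 42 for the interaction and 1142 to 744 for the shared effect. In other alternatives 515 values for single genes kept their direction and side of the threshold.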
